A study of Rattus norvegicus with 6 samples.

Results

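The 40 genes described here are measured genes of the rat major histocompatibility complex (MHC) and of its antigen processing machinery. They were taken by gene symbol, as every row whose symbol starts with RT1-, the name of the rat MHC, together with B2m, Cd74, Tap1, Tap2, Tapbp, Psmb8, Psmb9, Psmb10 and Ciita. Nlrc5, a regulator of class I genes, belonged to the same rule but had no named row and was not analysed here. The 40 genes were 40 of the 23188 rows of the array that are not controls, of which 15049 carried 1 gene symbol, and they comprised 21 class I genes, 10 class II genes, 7 class I pathway genes and 2 class II pathway genes. Each gene had 1 row, and none shared all its values with another row.

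RNA of whole rat hearts was hybridised to 6 Clariom S Rat arrays, single-colour arrays that give 1 value per transcript cluster, with 2 arrays in each of 3 groups. The groups were normal hearts, hearts subjected to TAC (a ligature that narrows the transverse aorta and loads the left ventricle with pressure) and hearts released from TAC, written TAC-R. All animals were male Sprague-Dawley rats aged 10 weeks, and the labels name no transgene or drug for any group. The protocol has control rats operated on without the ligature. Whether the normal hearts are theirs is not stated, and the labels give neither the time under the ligature nor the time after its removal. They also do not say that both arrays of a group came from separate animals, so the p-values measure the spread between arrays, which may be technical. The number of arrays limits the precision of every value. The extraction step is described for fibroblasts in culture, while all other fields name whole heart. The cardiomyocyte genes Actc1 and Mb stood at the highest value of the scale on all 6 arrays, and Tnnt2 and Tnni3 read at least 19.87 log2 units on each.

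MHC class I molecules are a heavy chain paired with beta-2 microglobulin, and almost all nucleated cells carry them to show peptides of their own proteins to CD8 T cells and natural killer cells. Those peptides are cut by the proteasome, in which immune subunits can replace the constitutive ones, pumped into the endoplasmic reticulum by the TAP transporter and loaded with the help of tapasin. MHC class II molecules are a pair of alpha and beta chains on macrophages, dendritic cells and B cells that show peptides from engulfed material to CD4 T cells, and they travel with the invariant chain Cd74 until the DM chains exchange it for a peptide. Interferon gamma raises both sets, class I through interferon response elements and class II through the coactivator Ciita at the X and Y boxes. In the heart, the class II positive cells are mainly resident macrophages and dendritic cells.

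Most members lie side by side. RefSeq places 36 of the 40 on chromosome 20 (assembly GRCr8), where the class I genes of the M series come first, followed by the T, N, S and O series, the C and E series (symbols RT1-CE), the class II genes with Tap1, Tap2, Psmb8 and Psmb9 between them, the A series with the classical class I genes, and Tapbp. B2m lies on chromosome 3, Ciita on 10, Cd74 on 18 and Psmb10 on 19. The series are read from the gene names, and grouping by them was chosen after the values were seen.

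Promoters are shown for members at the top of each class by mean signal and for the single member called in a comparison, because the members share a small set of motifs in them. Each sequence holds the 250 bases before the RefSeq gene start on GRCr8, 5′ to 3′ on the gene's strand, and capitals mark matches on either strand to 5 motifs. The motifs were the interferon-stimulated response element GAAANNGAAA, the interferon response box TTTCACTTC of class I promoters, the enhancer A core GGATTCCCC, to which NF-kappaB binds, the X box core AGCAAC and the Y box ATTGG. They were chosen with these promoters in view. RT1-CE15 is at chr20:3283771-3284020 and RT1-CE3 at chr20:3525159-3525408, both on the minus strand, RT1-S3 is at chr20:2675278-2675527 and RT1-Da at chr20:4515165-4515414 on the plus strand, B2m is at chr3:129549080-129549329 on the plus strand and Tapbp at chr20:4967878-4968127 on the minus strand.
RT1-CE15: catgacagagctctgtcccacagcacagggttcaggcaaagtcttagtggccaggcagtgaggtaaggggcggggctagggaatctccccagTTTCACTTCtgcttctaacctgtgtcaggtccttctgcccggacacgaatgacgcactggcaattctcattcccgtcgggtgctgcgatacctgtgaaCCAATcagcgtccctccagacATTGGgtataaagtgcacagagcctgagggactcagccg
RT1-CE3: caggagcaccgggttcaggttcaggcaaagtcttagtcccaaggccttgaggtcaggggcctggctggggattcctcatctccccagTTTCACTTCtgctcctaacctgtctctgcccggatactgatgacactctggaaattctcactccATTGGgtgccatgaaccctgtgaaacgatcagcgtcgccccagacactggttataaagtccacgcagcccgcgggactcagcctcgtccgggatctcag
RT1-S3: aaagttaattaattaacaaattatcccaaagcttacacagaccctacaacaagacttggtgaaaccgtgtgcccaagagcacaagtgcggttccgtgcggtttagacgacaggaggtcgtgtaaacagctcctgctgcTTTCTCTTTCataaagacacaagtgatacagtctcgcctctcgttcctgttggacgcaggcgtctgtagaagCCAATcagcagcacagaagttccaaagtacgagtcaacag
RT1-Da: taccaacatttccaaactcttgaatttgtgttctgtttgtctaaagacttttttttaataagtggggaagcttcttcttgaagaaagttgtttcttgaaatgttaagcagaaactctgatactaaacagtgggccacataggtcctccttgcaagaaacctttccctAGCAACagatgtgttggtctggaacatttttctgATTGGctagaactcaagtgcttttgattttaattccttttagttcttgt
B2m: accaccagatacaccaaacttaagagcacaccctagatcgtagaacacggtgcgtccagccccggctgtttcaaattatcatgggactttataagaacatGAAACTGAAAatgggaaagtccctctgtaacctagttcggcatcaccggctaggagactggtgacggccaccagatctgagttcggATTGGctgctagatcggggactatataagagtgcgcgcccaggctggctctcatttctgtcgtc
Tapbp: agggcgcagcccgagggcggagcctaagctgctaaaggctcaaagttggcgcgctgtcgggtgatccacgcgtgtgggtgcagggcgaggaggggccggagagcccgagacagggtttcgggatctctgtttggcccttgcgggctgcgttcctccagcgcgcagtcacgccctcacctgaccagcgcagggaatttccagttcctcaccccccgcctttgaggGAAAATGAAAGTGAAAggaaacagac

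The table held a promoter for 36 of the 40 members; Ciita, RT1-M2, RT1-M1-4 and RT1-DMb had none there. GAAANNGAAA was found in 5 of the 7 class I pathway promoters (B2m, Tap1, Tap2, Tapbp and Psmb10), in RT1-S3, RT1-S2 and RT1-N3, and in 0 of 9 class II promoters, against 3.41% of all 33469 promoters of the same length. TTTCACTTC was found in 9 member promoters, those of RT1-T18, Tap2 and 7 of the 8 genes of the A, C and E series, against 0.382% of all promoters, and the enhancer A core in 5 of those 8, against 0.215%. In the printed pair, RT1-CE15 and RT1-CE3 hold the response box but not the exact enhancer A core. The X box core was found in 10 member promoters, among them 6 of 9 class II promoters and that of Cd74, against 12.1% of all promoters, and in those 6 the next Y box began 31 to 34 bases after it, as in the RT1-Da sequence, where they begin 34 bases apart. ATTGG was found in all 9 class II promoters and in all 8 of the A, C and E series, against 34% of all promoters. A match describes the letters and does not show that a factor binds there. Because the motifs were chosen with these promoters in view, the shares of all promoters describe the members and test nothing. The 8 promoters of the A, C and E series were 79.6% to 90.6% identical in pairs, so their matches are not independent. Different motifs overlapped in 1 member promoter, that of Tap2, and in the Tapbp sequence the capitals are 2 overlapping matches of GAAANNGAAA.

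The promoters of the C and E series resemble each other. Aligned in pairs, the 6 were 79.6% to 87.9% identical (median 84%, 15 pairs), against 53.7% to 68.9% for 5 promoters of the M series and 54.1% to 68.3% for 9 class II promoters. Class I genes of 1 family can share probes. The probe and transcript sequences were not compared here, so each value of an RT1-A or RT1-CE gene is uncertain as a measure of that gene alone.

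Few members gave a signal above background. The values are log2 signals, and background was taken as the 95th percentile of 1153 negative control rows of the same array, which lay between 8.09 and 8.55. On at least 1 array 9 of the 40 members stood above it: B2m, Tapbp, Cd74, RT1-Da, RT1-S3, RT1-CE15, RT1-CE3, RT1-CE10 and RT1-CE13. B2m, Cd74 and RT1-CE15 did so on all 6 arrays. The other 31 stayed under it on every array, as did 70.5% of all rows, and the means of 14 members lay under the median of the negative controls. A value under the percentile gives only a bound on the gene's level. Signals are compared between groups for 1 gene, never between genes, because probes differ in brightness.

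**Figure D1:**
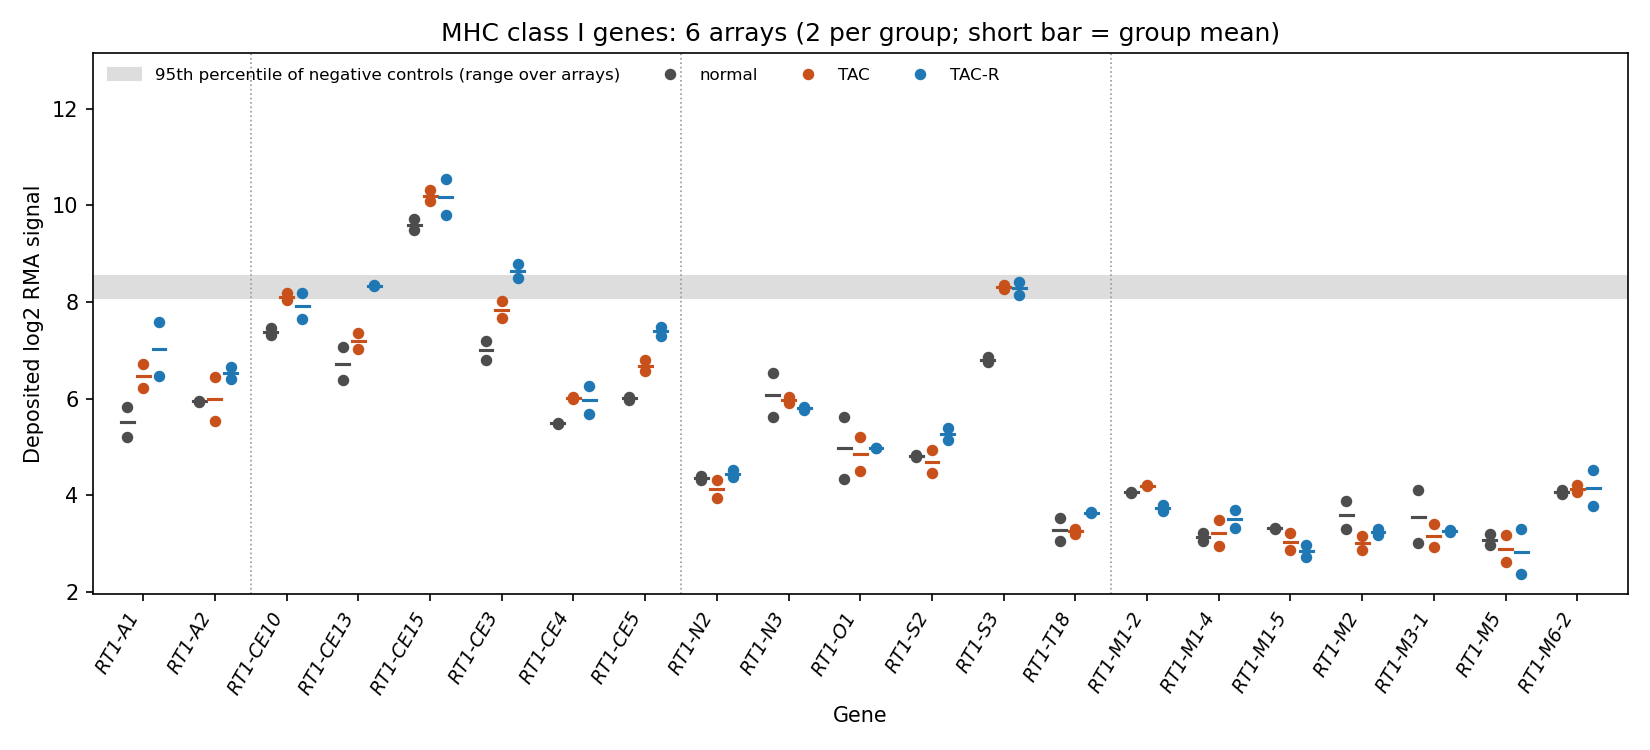
Deposited log2 RMA signal (vertical axis) of the 21 class I genes (horizontal axis, dotted lines between the A, C and E, N to T and M series). Each point is 1 array, each short bar the mean of 2 arrays, and the grey band spans the 95th percentiles of the negative controls over the arrays (8.09 to 8.55); RT1-CE15 is above the band on all arrays, and the M series lies between 2.36 and 4.52.

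TAC hearts differed from normal hearts past the threshold in 1 of the 40 members, the nonclassical class I gene RT1-S3. RT1-S3 read 6.76 and 6.86 on the normal arrays, 8.35 and 8.27 on the TAC arrays and 8.42 and 8.14 on the TAC-R arrays. Its normal arrays lay under background, while both TAC arrays stood just above that of their own array. RT1-S3 rose by 1.50 ± 0.22 log2 units (SE, n = 2 arrays a group, adjusted p = 0.0377 with limma over all rows) between normal and TAC hearts. No fold is given, because the TAC mean of 8.31 lay under the background of the normal arrays. With any 1 of the 6 arrays left out the call was lost (adjusted p between 0.0653 and 0.301), while the difference stayed between 1.45 and 1.55. It was also lost with quantile normalization, with the TAC-R arrays taken out of the fit and when control rows were kept in it. TAC-R hearts held the TAC level, with a difference of -0.02 ± 0.22 from TAC, and stood 1.47 ± 0.22 above normal (adjusted p = 0.0756). The call of 1 member (2.5%) stands beside 0.254% of all rows called in this comparison.

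Counts at an unadjusted p under 0.05 were larger. In TAC against normal hearts, 10 of 40 members passed it, 9 higher and 1 lower, against 10.3% of all rows. In TAC-R against TAC, 11 passed, 6 higher and 5 lower, against 11% of all rows, and 0 were called after adjustment, where 0.431% of all rows were. In TAC-R against normal, 10 passed, 8 higher and 2 lower, against 10.7%, and 0 were called, where 0.0906% of all rows were. Since 2 arrays against 2 cannot give an exact permutation p under 0.333, single genes were tested only in the fit across all rows.

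The 6 genes of the C and E series, class I genes that lie next to one another, all lay above 0 in TAC against normal and in TAC-R against normal. Their median difference was 0.64 log2 units between TAC and normal, 0.34 between TAC-R and TAC, and 0.98 between TAC-R and normal, where the median over all rows was 0.00 in each comparison. None of the 6 passed the threshold in any comparison, at adjusted p-values of 0.327 or more in TAC against normal, 0.158 or more in TAC-R against TAC and 0.0765 or more in TAC-R against normal. In TAC against normal both TAC arrays stood above both normal arrays in 5 of the 6, and in TAC-R against normal this held for 6 of 6. Over all rows the shares that separated upwards in this way were 21.9% for TAC over normal and 20.6% for TAC-R over normal. With arrays centred on their medians or with an intensity trend, RT1-CE3, RT1-CE5 and RT1-CE13 passed the threshold in TAC-R against normal, as did RT1-S3. None of them passed it with quantile normalization, robust moderation, only the 2 groups compared, control rows kept in or a replicate block. RT1-CE5 lay under background on every array. If these genes share probes, the 6 values are not 6 independent observations; probe sequences were not compared.

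RT1-CE15 read 9.49 and 9.72 on the normal arrays, 10.32 and 10.09 on the TAC arrays and 10.55 and 9.79 on the TAC-R arrays. It was the class I gene with signal above background throughout, and its TAC arrays lay above its normal arrays, while the TAC-R arrays spanned the TAC values. TAC exceeded normal by 0.60 ± 0.28 (1.52-fold, adjusted p = 0.507), and TAC-R differed from TAC by -0.03 ± 0.28 (adjusted p = 0.98).

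RT1-CE3 read 6.80 and 7.20 on the normal arrays, 7.66 and 8.02 on the TAC arrays and 8.78 and 8.51 on the TAC-R arrays. The 3 groups did not overlap, and the TAC-R arrays alone stood above background. TAC-R exceeded TAC by 0.80 ± 0.25 (at least 1.39-fold, adjusted p = 0.273) and normal by 1.64 ± 0.25 (at least 1.11-fold, adjusted p = 0.0765). The bounds are smaller than the differences because the dimmer group is taken at the background of its arrays.

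RT1-CE13 had a like order, at 6.39 and 7.06 on the normal arrays, 7.03 and 7.36 on the TAC arrays and 8.33 and 8.35 on the TAC-R arrays. Normal and TAC overlapped, and both TAC-R arrays lay above the rest. TAC-R exceeded TAC by 1.14 ± 0.27 (at least 1.12-fold, adjusted p = 0.158) and normal by 1.61 ± 0.27 (adjusted p = 0.0979).

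RT1-CE10 read 7.46 and 7.31 on the normal arrays, 8.19 and 8.04 on the TAC arrays and 8.18 and 7.65 on the TAC-R arrays. Its TAC arrays were higher than its normal ones, by 0.73 log2 units (adjusted p = 0.383), and TAC-R spread down towards normal. Only TAC-R replicate 1 stood above the background of its array, at 8.180 against 8.174. The normal and TAC arrays lay under theirs, so the difference between TAC and normal has no measured size. RT1-CE5 and RT1-CE4 stayed under background on every array. RT1-CE5 read 6.04 and 5.98 in normal, 6.80 and 6.57 in TAC and 7.30 and 7.48 in TAC-R hearts, with TAC-R 1.38 ± 0.21 above normal (adjusted p = 0.0839), and RT1-CE4 read 5.48 and 5.50, 6.04 and 5.99, and 6.27 and 5.68.

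The A series holds the classical class I genes, whose products present peptides to CD8 T cells. RT1-A1 read 5.21 and 5.82 on the normal arrays, 6.73 and 6.22 on the TAC arrays and 7.59 and 6.48 on the TAC-R arrays. RT1-A2 read 5.96 and 5.93, 6.45 and 5.53, and 6.65 and 6.42 in the same order. Both stayed under background, so these differences have no measured size: RT1-A1 stood 0.96 ± 0.38 higher in TAC (adjusted p = 0.453) and 1.51 ± 0.38 higher in TAC-R (adjusted p = 0.269) than in normal hearts. In TAC-R against normal, all 8 genes of the A, C and E series separated upwards and 0 downwards, against 20.6% and 20.3% of all rows. This grouping was chosen after the values were seen, and the 8 genes may share probes.

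The remaining class I genes were dim. Of the N, O, S and T series, the 5 genes beside RT1-S3 stayed under background, and the whole series ranged from 3.04 to 8.42. In the M series, whose members are known from sensory and other restricted tissues, the 7 genes ranged from 2.36 to 4.52, with median differences of -0.19 in TAC against normal, 0.01 in TAC-R against TAC and -0.29 in TAC-R against normal. In TAC against normal, 1 M gene separated upwards and 2 downwards (14.3% and 28.6%), against 21.9% and 21.3% of all rows. Over all 21 class I genes the median difference was 0.07 in TAC against normal, 0.13 in TAC-R against TAC and 0.38 in TAC-R against normal. With 1 array left out these ranged from 0.07 to 0.16, from 0.08 to 0.34, the highest without TAC replicate 1, and from 0.27 to 0.47. Both arrays were higher than both of the other group in 8, 7 and 12 of the 21 in those comparisons, against 21.9%, 20.1% and 20.6% of all rows, and lower in 3, 2 and 3, against 21.3%, 20.4% and 20.3%.

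**Figure D2:**
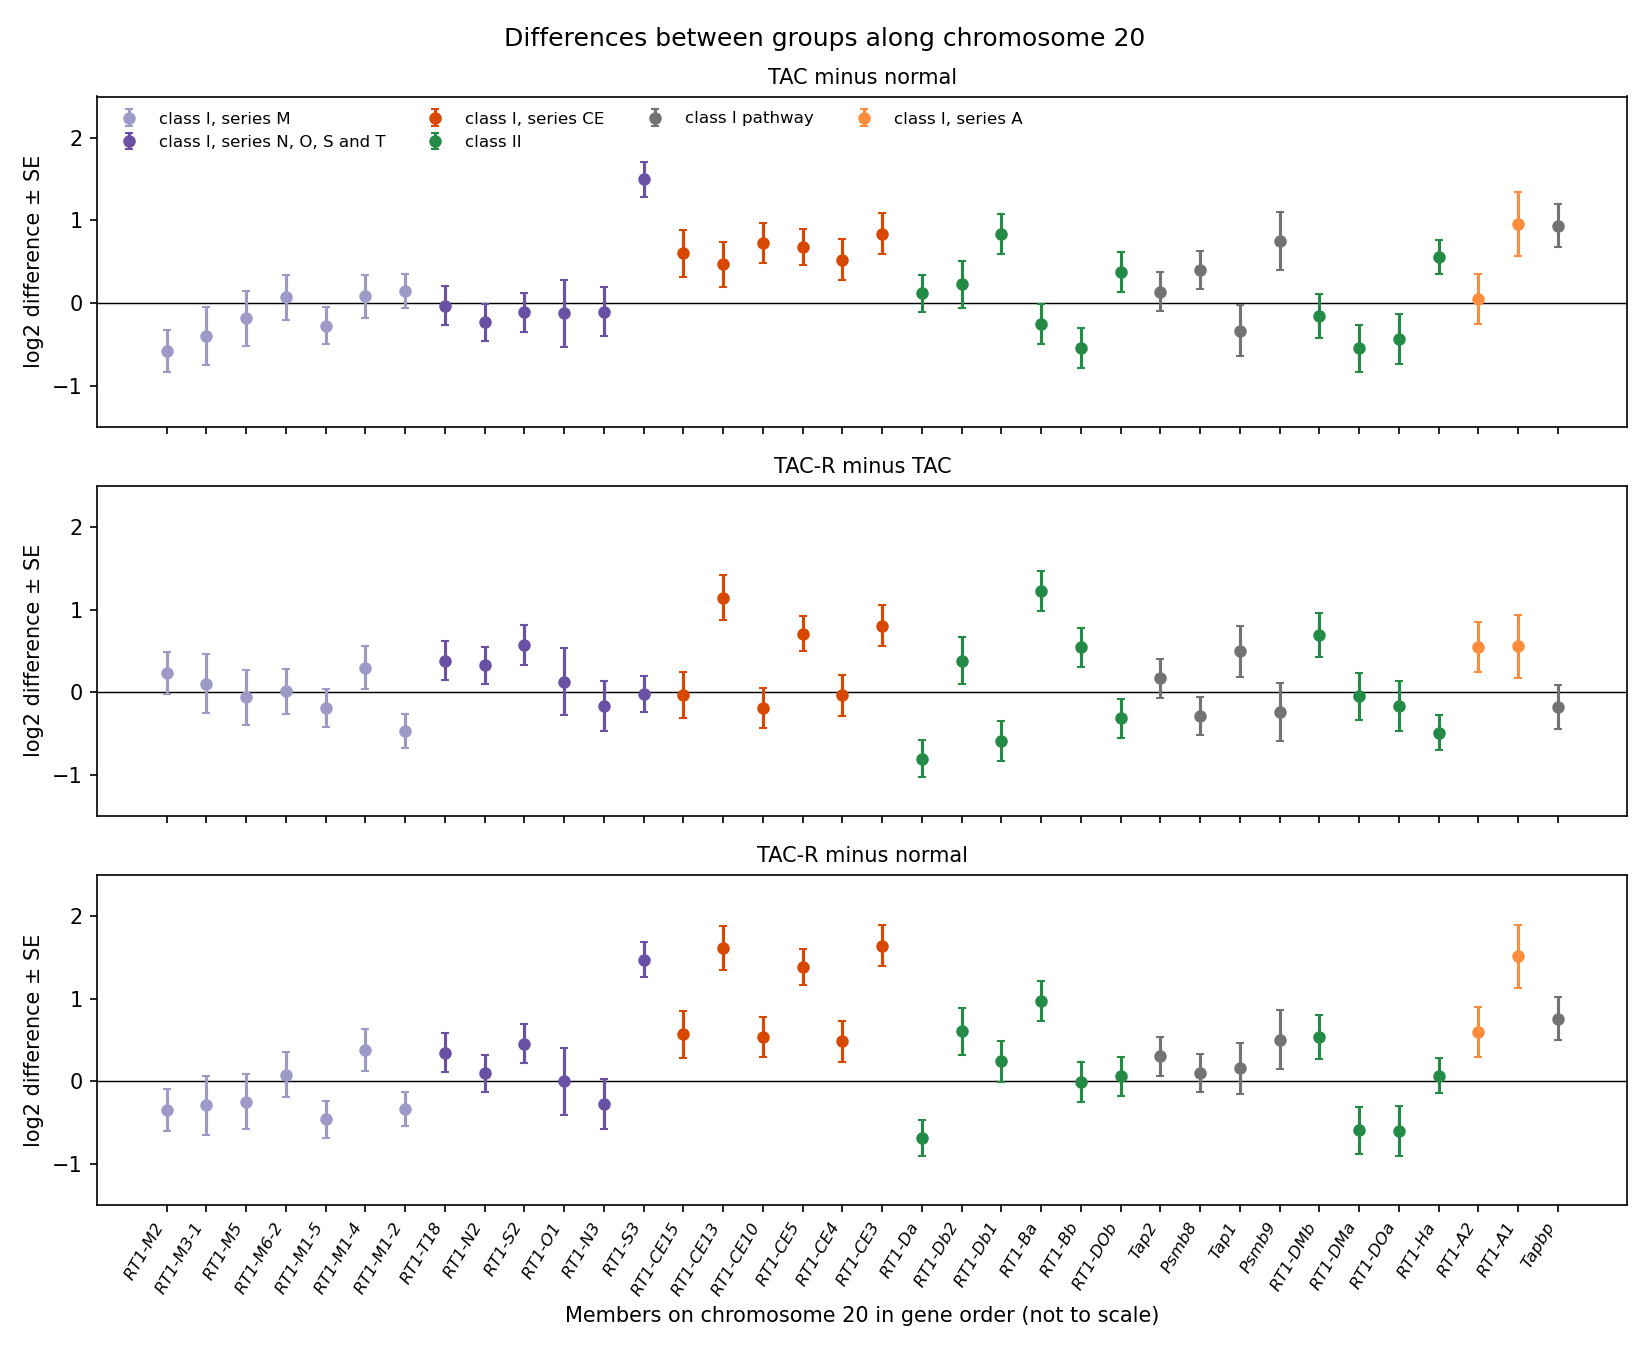
Log2 difference between groups (vertical axis, point ± SE from the fit, 2 arrays a group) for the 36 members on chromosome 20 in RefSeq gene order (horizontal axis, not to scale), 1 panel per comparison. RT1-S3 and the adjoining C and E genes lie above 0 in the top and bottom panels, and the class II genes lie on both sides of 0 in all 3.

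B2m, the light chain that every class I molecule needs, was bright on all arrays. It read 14.65 and 14.95 on the normal arrays, 15.27 and 15.56 on the TAC arrays and 15.69 and 15.35 on the TAC-R arrays. All 4 TAC and TAC-R arrays lay above both normal arrays. TAC exceeded normal by 0.61 ± 0.24 (1.53-fold, adjusted p = 0.442), TAC-R exceeded normal by 0.72 ± 0.24 (1.65-fold, adjusted p = 0.357), and TAC-R differed from TAC by 0.11 ± 0.24 (adjusted p = 0.914).

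Tapbp, which encodes tapasin and bridges the TAP transporter to empty class I molecules, was also lowest on the normal arrays. Its values were 9.09 and 8.39 on the normal arrays, 9.68 and 9.68 on the TAC arrays and 9.48 and 9.52 on the TAC-R arrays. Of the 2 normal arrays 1 lay under its background, and both TAC-R arrays lay just below both TAC arrays. TAC exceeded normal by 0.94 ± 0.26 log2 units (adjusted p = 0.301) and TAC-R exceeded normal by 0.76 ± 0.26 (adjusted p = 0.375).

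The other class I pathway genes, Tap1 and Tap2 (the peptide transporter) and Psmb8, Psmb9 and Psmb10 (the immunoproteasome subunits), stayed under background on all arrays, between 4.82 and 7.999. Tap1 read 7.16 and 7.77 in normal, 7.05 and 7.21 in TAC and 7.999 and 7.25 in TAC-R hearts, so its groups overlapped between normal and TAC-R. Psmb9 spread over more than 1 log2 unit within the normal group alone, at 5.95 and 4.82. Of the 7 class I pathway genes, 3 separated upwards and 0 downwards in TAC against normal, against 21.9% and 21.3% of all rows. In TAC-R against TAC 1 separated upwards and 3 downwards, against 20.1% and 20.4% of all rows. In TAC-R against normal 3 separated upwards and 0 downwards, against 20.6% and 20.3%. The median differences of the 7 genes were 0.40, 0.11 and 0.30. The first was 0.21 without normal replicate 2, the second was above 0 in 7 of 11 settings and -0.06 without TAC-R replicate 1, and the last was 0.53 without TAC-R replicate 2. TAC, TAC-R and normal share arrays across these comparisons, so the 3 sets of counts are not independent of one another.

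**Figure D3:**
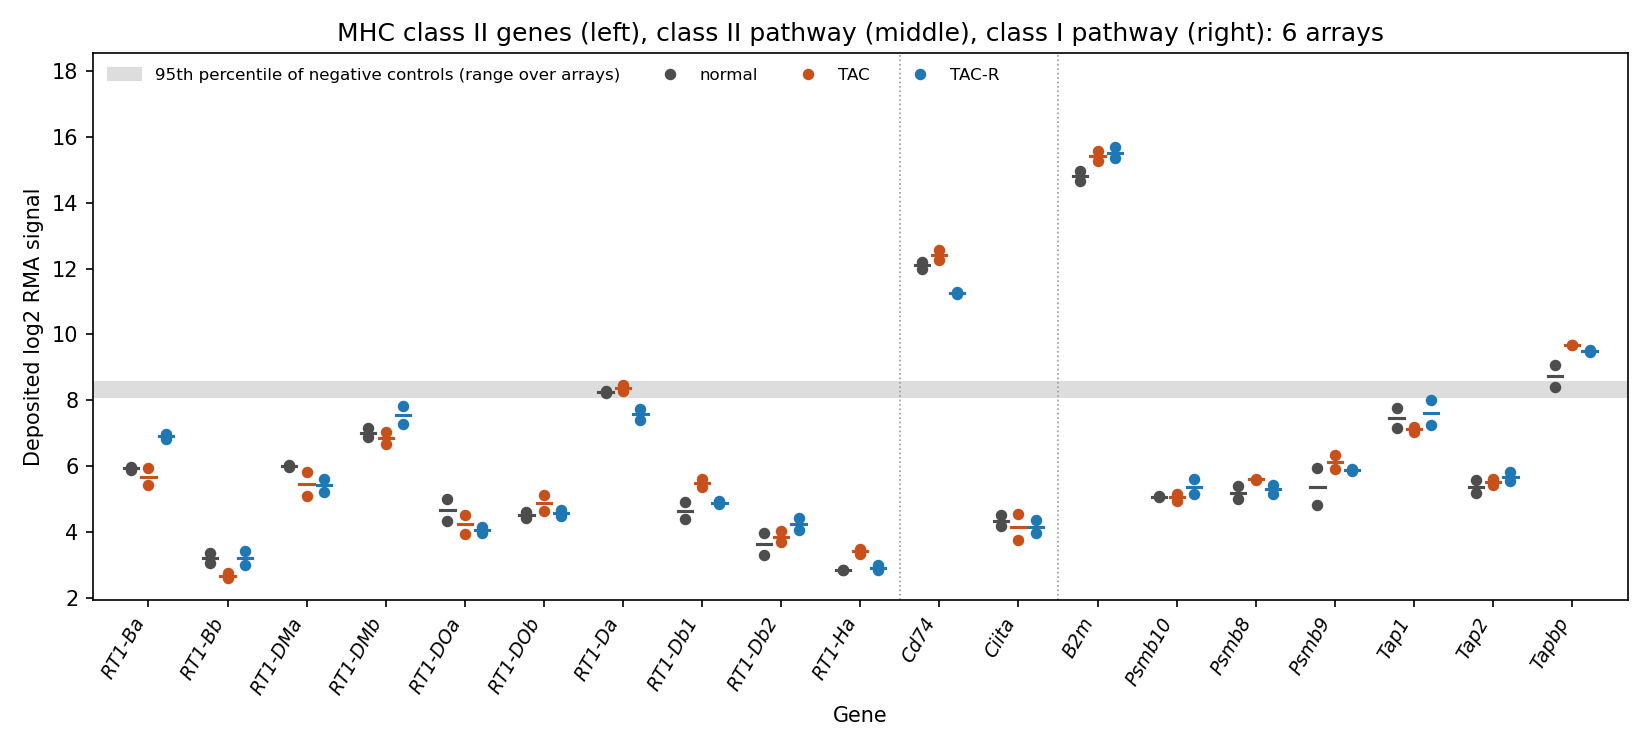
Deposited log2 RMA signal (vertical axis) of the 10 class II genes, the 2 class II pathway genes and the 7 class I pathway genes (horizontal axis, dotted lines between the sets). Each point is 1 array and each short bar the mean of 2 arrays, with the grey band as the 95th percentiles of the negative controls over the arrays (8.09 to 8.55); Cd74, B2m and Tapbp stand at or above it, and Cd74 is lowest on the TAC-R arrays (11.22 and 11.28).

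Of the class II and class II pathway genes, Cd74 and RT1-Da were the 2 above background, and both read lowest on the TAC-R arrays. Cd74, the invariant chain that guides class II molecules to the endosome, read 11.99 and 12.20 on the normal arrays, 12.25 and 12.55 on the TAC arrays and 11.28 and 11.22 on the TAC-R arrays. Both TAC-R arrays lay below the other 4. TAC-R differed from TAC by -1.15 ± 0.22 log2 units (2.22-fold lower, adjusted p = 0.0877) and from normal by -0.84 ± 0.22 (1.79-fold lower, adjusted p = 0.281). TAC and normal differed by 0.31 ± 0.22 (adjusted p = 0.665). With an intensity trend in the moderation the difference between TAC-R and TAC passed the threshold (adjusted p = 0.00438), and over 10 settings its adjusted p ran from there to 0.363. In whole tissue, fewer cells of a type and less RNA per cell cannot be told apart.

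RT1-Da, an alpha chain of the class II D molecule, read 8.23 and 8.29 on the normal arrays, 8.29 and 8.46 on the TAC arrays and 7.41 and 7.74 on the TAC-R arrays. It stood above background only on the TAC arrays, and both TAC-R arrays were lowest. TAC-R differed from TAC by -0.81 ± 0.22 (at least 1.19-fold lower, adjusted p = 0.219) and from normal by -0.69 ± 0.22 (adjusted p = 0.343). TAC differed from normal by 0.12 ± 0.22 (adjusted p = 0.896).

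The other 9 class II genes stayed under background on every array, between 2.60 and 7.84, and did not share a direction. RT1-Ba, the alpha chain of the B molecule, read 5.90 and 5.98 on the normal arrays, 5.43 and 5.94 on the TAC arrays and 6.83 and 6.99 on the TAC-R arrays, opposite in order to RT1-Da, with TAC-R 1.22 ± 0.24 above TAC (adjusted p = 0.0934). Its partner RT1-Bb read 3.08 and 3.38, 2.60 and 2.76, and 3.44 and 3.00. The beta chain RT1-Db1 read 4.91 and 4.41, 5.61 and 5.37, and 4.85 and 4.94, with TAC 0.83 above normal (adjusted p = 0.323) and a difference of -0.59 between TAC-R and TAC (adjusted p = 0.423).

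RT1-DMb, a chain of the DM molecule that exchanges the invariant chain fragment for a peptide, read 7.15 and 6.89 on the normal, 7.05 and 6.69 on the TAC and 7.27 and 7.84 on the TAC-R arrays, with TAC-R 0.69 above TAC (adjusted p = 0.389). RT1-DMa read 6.05 and 5.99, 5.11 and 5.84, and 5.63 and 5.22. The DO chains RT1-DOa and RT1-DOb, which restrain DM, and the genes RT1-Db2 and RT1-Ha lay between 2.85 and 5.13. Ciita, the class II coactivator, lay between 3.75 and 4.57 on all arrays, and the medians of the negative controls lay between 4.39 and 4.63.

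Over the 10 class II genes the median difference was -0.02 in TAC against normal, -0.11 in TAC-R against TAC and 0.06 in TAC-R against normal. Both arrays were higher in 4, 4 and 3 of the 10 genes and lower in 2, 3 and 3. Over all rows 21.9% separated upwards and 21.3% downwards in TAC against normal. The shares of all rows were 20.1% and 20.4% in TAC-R against TAC, and 20.6% and 20.3% in TAC-R against normal. Over all 40 members 16 separated upwards and 5 downwards in TAC against normal, 12 and 9 in TAC-R against TAC, and 18 and 7 in TAC-R against normal.

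**Figure D4:**
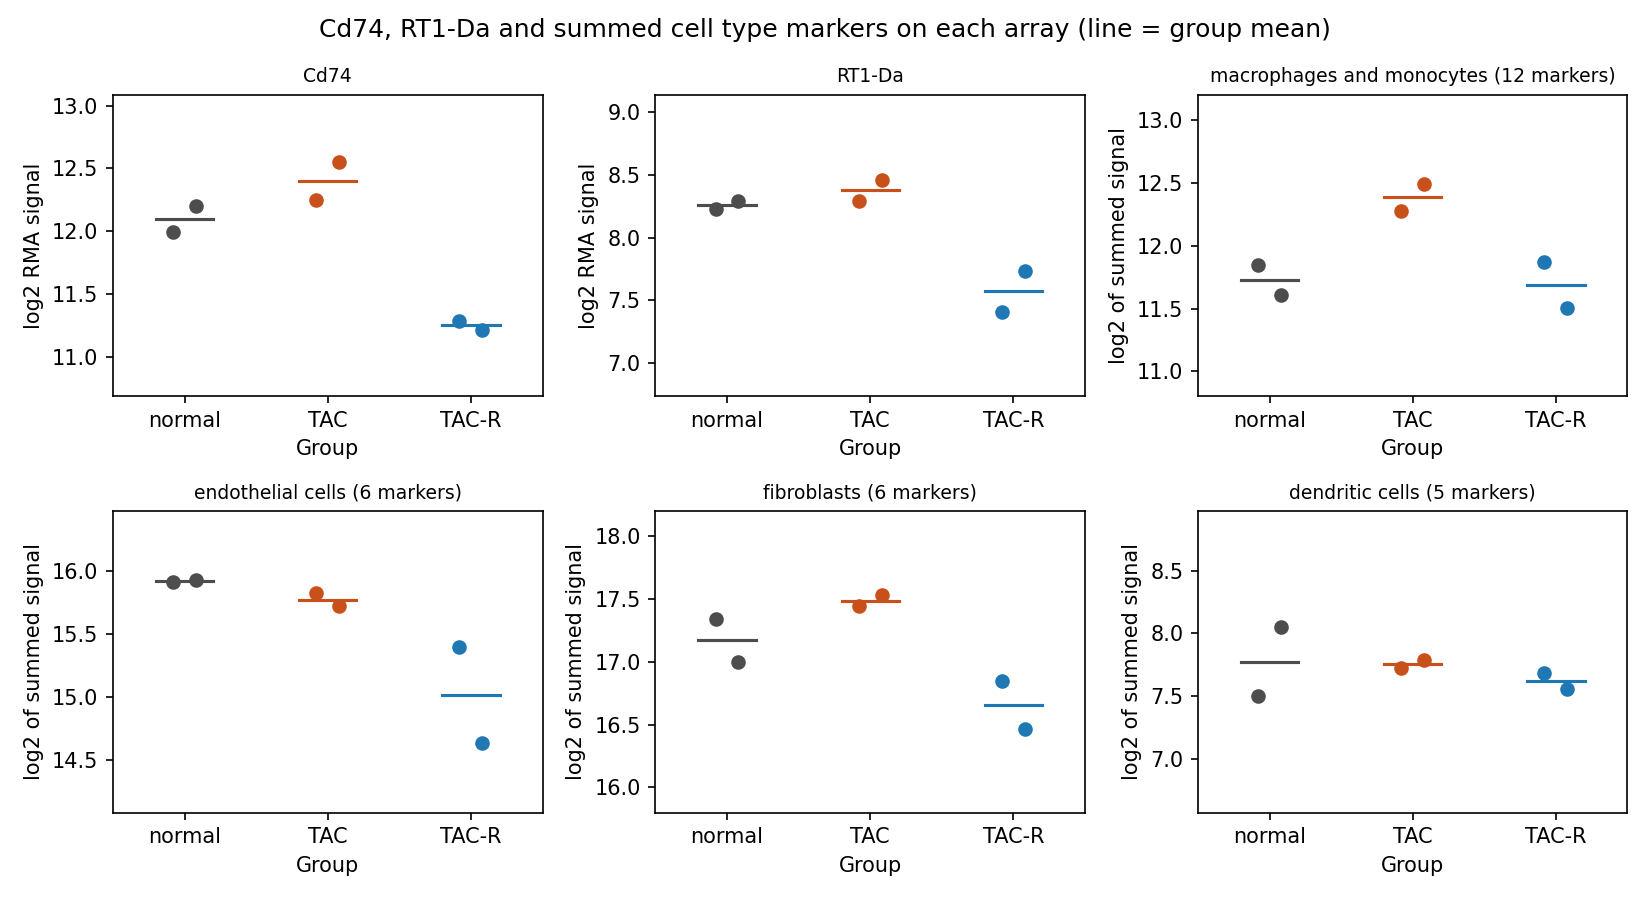
Cd74 and RT1-Da (log2 RMA signal) beside the log2 of the summed signal of 4 lists of cell type markers (vertical axes, each spanning the same number of log2 units) on each of the 6 arrays by group (horizontal axis). Points are arrays and lines are group means; Cd74, RT1-Da, the endothelial list and the fibroblast list are lowest on the TAC-R arrays, and the macrophage list is highest on the TAC arrays.

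Markers of cells that carry class II moved with these genes in part. The 12 measured markers of macrophages and monocytes, of which Lyz2, C1qa and Mrc1 stood above background, summed to between 11.61 and 11.85 log2 units on the normal arrays, 12.28 and 12.50 on the TAC arrays and 11.51 and 11.87 on the TAC-R arrays. The TAC arrays were highest in this sum, and normal and TAC-R overlapped, unlike Cd74, whose TAC-R arrays lay below normal. The sum is carried mostly by Lyz2. Marker by marker, all 12 were higher in TAC than in normal hearts. Of these, 9 separated upwards and 0 downwards, against 21.9% and 21.3% of all rows. In TAC-R against TAC 2 were higher and 10 lower. There 1 separated upwards and 8 downwards, against 20.1% and 20.4% of all rows. In TAC-R against normal 9 of the 12 were higher and 3 were lower. In that comparison 7 separated upwards and 0 downwards, against 20.6% and 20.3% of all rows. On all arrays 9 of the 12 stayed under background. No marker of this list was called in any comparison. Lyz2, the lysozyme of myeloid cells, was 0.80 ± 0.29 higher in TAC than in normal (adjusted p = 0.412) and differed by -1.01 ± 0.29 between TAC-R and TAC (adjusted p = 0.24).

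Of the markers of dendritic cells 5 were measured and 0 stood above background, and of B cells 3 were measured and 0 did, so the arrays give only bounds on both. Summed dendritic cell markers lay between 7.50 and 8.05 in normal, 7.72 and 7.79 in TAC and 7.56 and 7.69 in TAC-R hearts, and those of B cells between 5.02 and 5.34 over all arrays. Summed T cell markers lay between 8.31 and 8.48, 8.19 and 8.41, and 8.94 and 9.14, with Cd28 as the 1 of 7 above background, and summed markers of NK and cytotoxic cells, 0 of 6 above it, between 7.19 and 7.35. The higher T cell sum in TAC-R hearts is carried by Cd28, which stood 1.25 log2 units above TAC. The other 6 T cell markers were lower in TAC-R than in TAC. Of 4 measured thymocyte markers only Cd1d1 stood above background, and their sum fell within 10.46 to 10.60, 9.95 to 10.17, and 9.83 to 9.87. That sum is carried by Cd1d1. In TAC against normal Cd1d1 was lower and the other 3 were higher.

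Summed stromal markers were lowest on the TAC-R arrays, as Cd74 was. The 6 endothelial markers, all above background, summed to between 15.91 and 15.93 in normal, 15.73 and 15.82 in TAC and 14.63 and 15.39 in TAC-R hearts. The 6 fibroblast markers, 5 above background, summed to between 17.00 and 17.34, 17.44 and 17.53, and 16.47 and 16.85. The endothelial sum is carried mostly by Cdh5 and the fibroblast sum by Dcn. In TAC-R against TAC all 6 of each list separated downwards and 0 upwards, against 20.4% and 20.1% of all rows. In TAC-R against normal 3 of 6 endothelial and 5 of 6 fibroblast markers separated downwards and 0 upwards. Of all rows 20.3% and 20.6% did so. The fibroblast collagens Col3a1 and Col1a2 fell between TAC and TAC-R, with differences of -1.72 ± 0.24 (adjusted p = 0.0269) and -1.66 ± 0.27 (adjusted p = 0.0469). The part of any of these cells in the levels of Cd74, RT1-Da or the class I genes was not tested.

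In TAC against normal, 3 red cell genes differed by more log2 units than any member did. Alas2, the first enzyme of red cell haem synthesis, rose by 3.03 ± 0.22 (adjusted p = 0.00341) between normal and TAC hearts, as did Slc4a1, the anion exchanger of red cells, by 2.53 ± 0.21 (adjusted p = 0.00341), and Hbb by 1.82 ± 0.22 (adjusted p = 0.0165). The normal arrays lay under background for Alas2 and Slc4a1, so their folds are at least 2.49-fold and at least 2.66-fold higher. Slc4a1 fell by 1.84 ± 0.21 between TAC and TAC-R (adjusted p = 0.014), and Alas2 was 1.70 ± 0.22 above normal in TAC-R (adjusted p = 0.0493). The 4 measured red cell genes summed to between 19.55 and 19.63 on the normal, 20.68 and 20.74 on the TAC and 20.32 and 20.41 on the TAC-R arrays, the same order of normal below both other groups as B2m and RT1-S3. The part of blood in the class I values was not tested. The sum of the 6 cardiomyocyte markers is carried by rows at or near the top of the scale and cannot show differences; Ryr2, the marker farthest below that top, differed by -0.69 ± 0.22 between TAC and normal (adjusted p = 0.36).

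Genes that supply and load class I peptides outside the rule gave no call. Of 14 listed genes, among them the constitutive proteasome subunits Psmb5, Psmb6 and Psmb7, the proteasome activators Psme1 and Psme2 and the chaperones Calr, Canx and Pdia3, 13 were measured and 12 stood above background. In every comparison 0 of 13 passed even the unadjusted threshold, and the median differences were 0.00 in TAC against normal, 0.05 in TAC-R against TAC and 0.17 in TAC-R against normal. The largest difference among those above background was 0.38 ± 0.25 for Pomp, a proteasome assembly factor, in TAC-R against normal (adjusted p = 0.613). Psme1 differed by 0.29 ± 0.27 between TAC and normal (adjusted p = 0.75). Of this list Erap1 was not analysed here.

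The list for the class II route, of enzymes and Cd63, showed 0 of 7 genes called in each comparison. Cathepsin B, Ctsb, read 15.45 and 15.21 on the normal arrays, 16.01 and 16.01 on the TAC arrays and 15.58 and 15.33 on the TAC-R arrays. Its TAC arrays were highest, 0.68 ± 0.22 above normal (adjusted p = 0.365) and TAC-R differed from TAC by -0.55 ± 0.22 (adjusted p = 0.397). Cd63, of the endosome membrane, was 0.47 ± 0.21 higher in TAC-R than in TAC (adjusted p = 0.467), and Lgmn, the endosomal protease legumain, differed by -0.29 ± 0.22 between TAC and normal (adjusted p = 0.681).

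Of 11 transcription factors of MHC promoters 10 were measured, 4 stood above background, and 0 were called in any comparison. Their median difference was 0.22 in TAC against normal and -0.43 in TAC-R against TAC. Creb1 and Nfyc, which bind the X and Y box region, differed by -0.43 ± 0.21 (adjusted p = 0.5) and -0.42 ± 0.24 (adjusted p = 0.594) between TAC-R and TAC.

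Interferon gamma signalling had the smallest adjusted p-values of the pathway lists in TAC against normal, with 0 of 14 measured genes called. Gbp2, a guanylate-binding protein induced by interferons, read 8.59 and 8.38 on the normal arrays, 9.88 and 9.44 on the TAC arrays and 8.50 and 8.65 on the TAC-R arrays. Of the 2 normal arrays 1 lay under its background. Both TAC arrays stood above the other 4, by 1.17 ± 0.24 log2 units over normal (adjusted p = 0.135), and TAC-R differed from TAC by -1.08 ± 0.24 (adjusted p = 0.132). Irf9, the DNA-binding part of the type I interferon factor, was 1.09 ± 0.24 higher in TAC than in normal (adjusted p = 0.191). The cytokine itself, Ifng, lay near the medians of the negative controls or under them, with group means of 3.36, 3.31 and 3.53. The list's median difference was 0.24 in TAC against normal, -0.31 in TAC-R against TAC and 0.08 in TAC-R against normal. On the TAC-R arrays Gbp2 read near its normal values and RT1-S3 near its TAC values, a difference between genes that was not tested.

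Relatives of class I outside the RT1 complex and the partners of MHC molecules on other cells also gave no call. Cd1d1, which presents lipids, read 10.56 and 10.39 on the normal, 9.83 and 10.08 on the TAC and 9.78 and 9.70 on the TAC-R arrays, and differed by -0.73 ± 0.22 between TAC-R and normal (adjusted p = 0.312). Fcgrt, the neonatal Fc receptor, differed by 0.12 ± 0.29 between TAC and normal (adjusted p = 0.918). Of 8 relatives 6 were measured, without Raet1d and Raet1e.

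Cd4, the T cell coreceptor for class II, which rat macrophages also carry, was the partner with the largest difference above background. It read 9.87 and 9.61 on the normal arrays, 11.01 and 10.85 on the TAC arrays and 10.31 and 9.24 on the TAC-R arrays, so that the TAC arrays were highest and the TAC-R arrays spread around normal. TAC exceeded normal by 1.19 ± 0.33 (adjusted p = 0.301) and TAC-R differed from TAC by -1.15 ± 0.33 (adjusted p = 0.244). Cd274, which encodes PD-L1, differed by -1.03 ± 0.27 between TAC-R and TAC (adjusted p = 0.201). Of the 11 genes of this list 0 were called in any comparison.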

How the data were processed

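The authors deposited log2 RMA signals, made with Expression Console as a core-exon analysis per the labels, with 1 value per transcript cluster and no detection calls. The sources used here give no version, background settings, genome build or scan dates. RMA gives the probes 1 distribution over arrays, so a shift of most genes in 1 direction would not show. Scanner files were not used here.

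Genes were named through the platform annotation, and all 40 members matched RefSeq by gene ID. Groups came from the sample titles. limma 3.58.1 in R 4.3.3 fitted 1 mean per group on all 6 arrays over the 23188 rows that are not controls, with eBayes (prior df 5.707) and Benjamini-Hochberg adjustment over all rows; an adjusted p under 0.05 was called. The fit was tested on simulated data first. Where a dim group lay under the negative control percentile, the fold is "at least" the bright mean over the higher of the percentile and the value on each dim array; where that is under 1 none is given. Marker sums are log2 of summed unlogged signals.

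Promoters came from the RefSeq table (GRCr8) and were aligned with Biopython 1.88; no protein sequences were used here. All members may be named, those above background with their values. From each pathway list the called genes are named, or else those with the largest differences among genes above background; other genes were named after their values were seen. The members and lists were chosen with earlier results of these data known. Alternatives covered normalization, filters, moderation, arrays in the fit, control rows, a replicate block, each array left out, the call rule and the mean in place of the median.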

Additional observations from a re-analysis of the deposited data

How the results depend on the processing

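Members called moved with the setting. In TAC against normal the 1 call, RT1-S3, became 0 with quantile normalization and with only the 2 groups compared. Control rows kept in and the replicate block also gave 0. With rows under the negative control percentile left out the count was 0 because RT1-S3 was itself removed, which left 4 members to test. Leaving out each array gave 0 as the lowest and the highest count. In TAC-R against TAC the count of 0 became 1 (Cd74) with rows under the percentile left out, 2 (Cd74 and RT1-Ba) with rows under the median row mean left out or with an intensity trend, and 3 (with RT1-CE13) at an unadjusted p under 0.05 and at least 1 log2 unit. In TAC-R against normal the count of 0 became 4 (RT1-S3, RT1-CE5, RT1-CE3 and RT1-CE13) with arrays centred on their medians, with rows under the median row mean left out or with the trend, and 5 (with RT1-A1) by the unadjusted rule. Robust moderation changed no count of members called. Apart from the removal of RT1-S3 by the percentile filter, the cause of these shifts was not tested.

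Median differences moved mainly where filters left fewer genes. For class I it became 0.64 in TAC against normal and 0.99 in TAC-R against normal with the median filter, which left 10 genes. The percentile filter left 1 class I gene, RT1-CE15, so its 0.60 in TAC against normal is the value of that gene. For the class I pathway it became 0.77 in TAC against normal and 0.74 in TAC-R against normal (percentile filter, 2 genes, B2m and Tapbp). With 1 array left out it ranged from 0.29 to 0.53 in TAC-R against normal, the highest without TAC-R replicate 2. For class II in TAC-R against TAC it became 0.32 (median filter, 4 genes). With 1 array left out it ranged from -0.44 to 0.17, without TAC replicates 1 and 2, so its direction rests on those arrays. The class II median in TAC against normal kept its sign in 5 of 10 settings. The percentile filter left no class II row, and averaging rows per gene was not run because each member has 1 row.

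The paired fit, with replicate numbers as a replicate block, gave 0 members called in each comparison (adjusted p = 0.0865 for RT1-S3 in TAC against normal). Over all rows that are not controls, same-numbered arrays did not deviate together (correlations of 0.01, -0.01 and -0.01). As 70.5% of those rows lay under background on every array, these values cannot show whether the arrays were paired. The labels name no pairing.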
